A study of Mus musculus with 4 samples.

Results

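The insulin-like growth factor (IGF) family was examined in the mouse dentate gyrus after electroconvulsive stimulation (ECS), an electrical stimulus that induces a seizure. The family was taken as the 10 genes Igf1, Igf2, Igf1r, Igf2r, Igfbp2, Igfbp3, Igfbp4, Igfbp5, Igfbp6 and Igfbp7, found by their symbols in the deposited list of transcripts and kept where at least 1 probeset was listed. They account for 10 of 18010 genes, 17 of 22485 transcript rows and 142 of 229712 listed probesets, a probeset being a small group of array probes for 1 stretch of exon. All 10 were measured and no filter on low values was applied. The members were chosen by symbol, by a rule without a threshold on any value, but with the log2 differences between ECS and sham of the transcript table already known. Those differences are therefore given as a description, and the place of a member among the calls of the fit over all genes is not independent evidence.

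The series held 4 exon arrays. Of these, 2 came from mice 4 h after ECS (pulses of 0.3 ms and 18 mA at 100 Hz for 1.0 s) and 2 from mice 4 h after sham treatment. All mice were wild-type C57/Black6 males aged 8 weeks, and the dentate gyrus was microdissected from the hippocampus. Each array is labelled a biological replicate, with no word on pooling of animals, so the p-values measure only the spread between these arrays. Values are log2 expression, and each transcript's value was the mean of its probesets. Array sham 2 stood apart in choroid plexus and meningeal markers, described beside Igf2 and Igfbp2, and the Igf2 and Igfbp2 differences are given with and without it.

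IGF-1 and IGF-2 are secreted peptides that act on growth, survival and synaptic function of neurons. They signal through the receptor tyrosine kinase encoded by Igf1r, whereas the receptor encoded by Igf2r has no kinase and carries IGF-2 to lysosomes for breakdown. The IGF binding proteins hold the ligands outside the cell, extend their life and limit or direct their access to the receptor, until proteases of the pappalysin and other families cut them and release the ligand.

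Among the 10 genes, Igfbp5 stood apart: its mean level in ECS tissue differed from that in sham tissue by -1.17 log2 units, and every probeset was lower on both ECS arrays than on both sham arrays. Igfbp2 and Igf2 had the widest gaps between the 2 sham arrays, 1.13 and 0.64 log2 units, wider than the differences between their groups. Smaller sham gaps also exceeded the group difference for Igf1, Igfbp4 and Igfbp6. Apart from Igfbp5, Igfbp2 and Igf2, the genes differed from sham by at most 0.11 log2 units.

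Igfbp5 and Igfbp2 are neighbours that face each other end to end. RefSeq (GRCm38.p6) places Igfbp2 at chr1:72824480-72852474 on the plus strand and Igfbp5 at chr1:72858065-72874865 on the minus strand, with 5.59 kb between them. The 250 bases before their start sites are shown because these neighbours gave such different patterns. For Igfbp5 this is chr1:72874866-72875115 on the minus strand, and for the pair of annotated Igfbp2 starts chr1:72824230-72824479 and chr1:72825137-72825386 on the plus strand. Capitals mark matches to 6 motifs searched on both strands, namely the TATA box with the letters TATAAA, the cyclic AMP response element with TGACGTCA, the AP-1 element with TGANTCA, the E-box with CACGTG, the FoxO element with GTAAACA and the Egr element with GCGTGGGCG.
Igfbp5: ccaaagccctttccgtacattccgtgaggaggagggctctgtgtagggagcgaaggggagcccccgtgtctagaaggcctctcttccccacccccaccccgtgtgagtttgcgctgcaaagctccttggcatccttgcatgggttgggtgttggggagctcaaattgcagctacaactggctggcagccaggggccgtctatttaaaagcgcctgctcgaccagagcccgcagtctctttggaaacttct
Igfbp2, first start: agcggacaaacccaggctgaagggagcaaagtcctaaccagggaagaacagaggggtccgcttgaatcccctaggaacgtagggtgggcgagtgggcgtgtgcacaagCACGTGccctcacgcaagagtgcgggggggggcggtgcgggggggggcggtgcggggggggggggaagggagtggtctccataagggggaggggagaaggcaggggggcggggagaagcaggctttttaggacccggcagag
Igfbp2, second start: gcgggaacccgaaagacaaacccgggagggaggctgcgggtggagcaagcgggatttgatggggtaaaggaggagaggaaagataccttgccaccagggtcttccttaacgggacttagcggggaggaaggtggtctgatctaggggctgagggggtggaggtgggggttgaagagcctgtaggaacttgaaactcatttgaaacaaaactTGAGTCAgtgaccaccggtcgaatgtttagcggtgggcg

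None of these letters occurred in the Igfbp5 window. The first Igfbp2 window held 1 E-box, which begins 142 bases before the start, and the second held 1 AP-1 element, which begins 39 bases before it. Marked matches did not overlap in these windows. Of 32851 RefSeq promoter windows of the same length, 6.02% held the E-box, 6.75% the AP-1 element, 12.4% the TATA box, 3.17% the FoxO element, 1.55% the cyclic AMP response element and 0.536% the Egr element. These matches describe letters only.

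Igfbp5, whose product binds both ligands and also extracellular matrix, read 10.0 and 10.1 on the ECS arrays, against 11.2 and 11.2 on the sham arrays. The groups did not overlap, and the distance between them was far larger than the distance between arrays of a group, which was 0.09 for ECS and 0.03 for sham. The mean was 10.1 ± 0.07 after ECS and 11.2 ± 0.02 after sham (SD, n = 2 each). The difference was -1.17 ± 0.09 log2 units (moderated SE), or 2.25-fold lower, with a 95% interval of -1.40 to -0.94. It was the difference with rank 12 from the lowest of 18010 genes. Igfbp5 fell in the fit over all genes (limma, two-sided, Benjamini-Hochberg adjusted p = 0.0185).

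Of the 10 family members Igfbp5 was the 1 called lower, and 0 were called higher. Over all genes limma called 0.694%, with 0.194% lower and 0.5% higher, and at an unadjusted p under 0.05 again 1 of the 10 members passed, where 16.9% of all genes did. The call needed all 4 arrays, as did nearly all calls over all genes, so its loss with fewer arrays is not particular to Igfbp5. Without ECS 1, ECS 2, sham 1 or sham 2 the difference was -1.12, -1.22, -1.16 and -1.18.

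**Figure D1:**
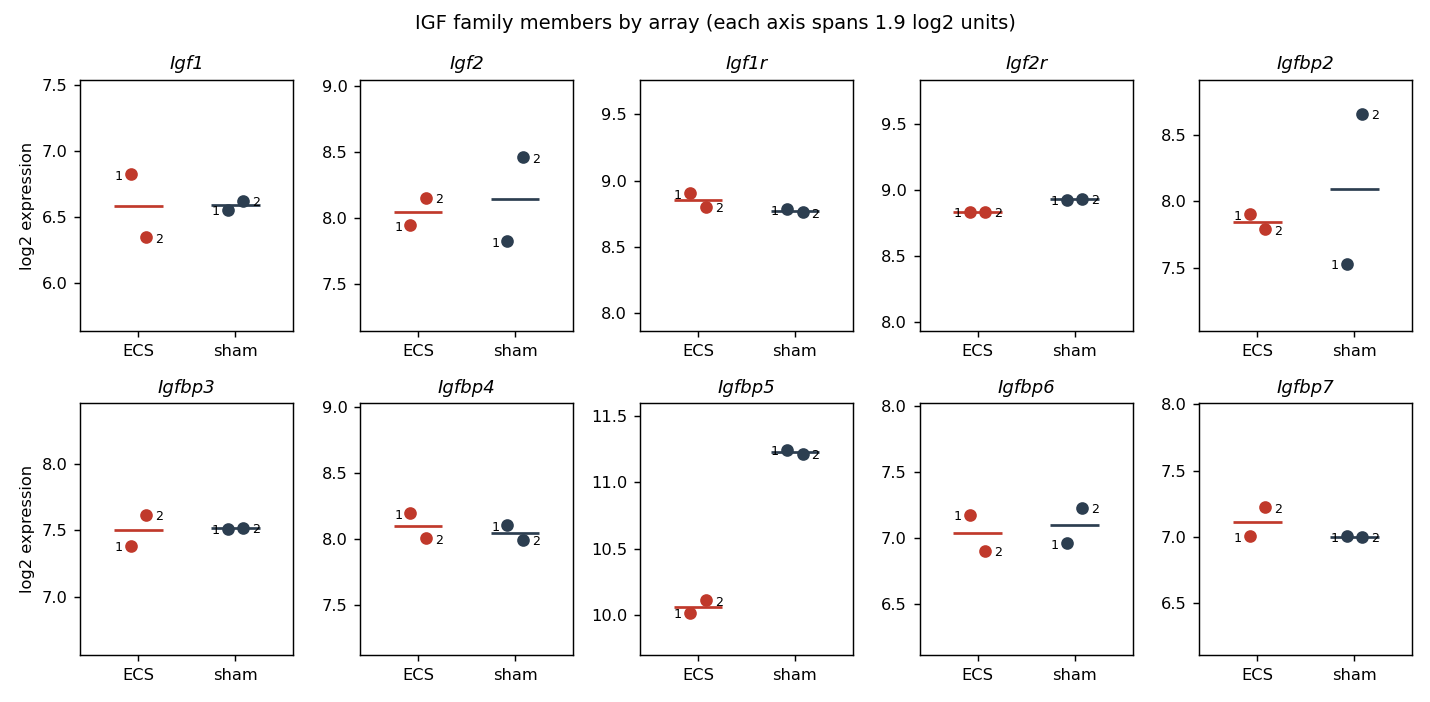
Log2 expression of the 10 family members on each array (points, numbered by replicate) with the group mean (bar), ECS at the left and sham at the right of each panel. Igfbp5 is the panel with widely separated groups (means 10.1 and 11.2), and Igfbp2 and Igf2 show the widest gap between the sham arrays.

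The fall of Igfbp5 was present along its whole set of probesets. Probeset 4396737 read 9.44 and 9.72 on the ECS arrays, against 10.8 and 10.7 on the sham arrays. Probeset 5446539 read 10.1 and 10.1 on the ECS arrays, against 11.5 and 11.3 on the sham arrays. All 4 probesets had both ECS arrays below both sham arrays, and their differences ran from -1.32 to -0.998 with a median of -1.18. Over all listed probesets 25.6% had both ECS arrays below both sham arrays and 17.6% had both above. None of the 4 was listed for another gene.

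**Figure D2:**
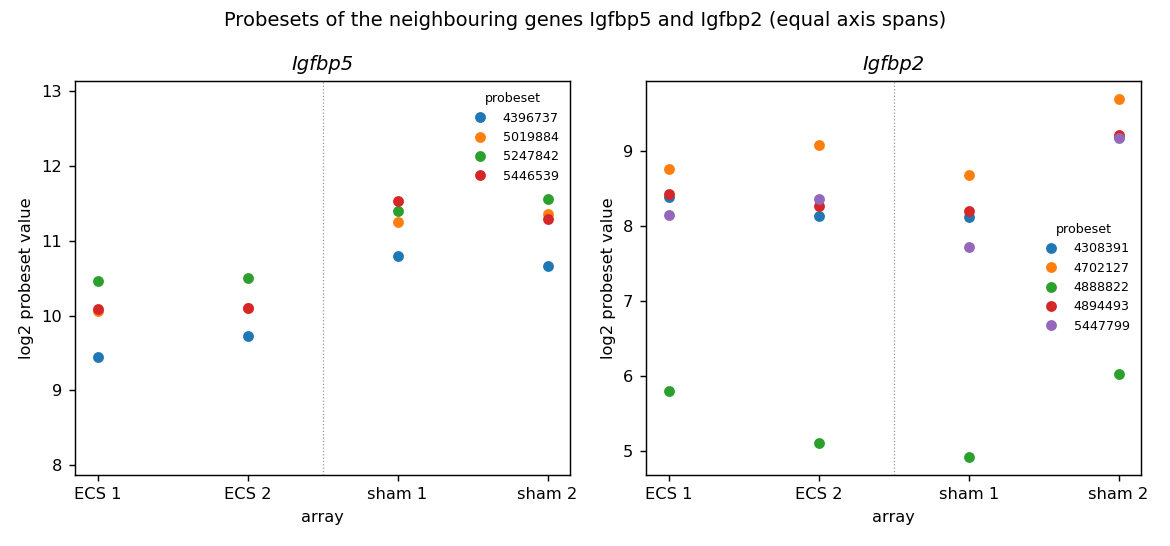
Log2 values of the 4 Igfbp5 probesets (left panel) and the 5 Igfbp2 probesets (right panel) on the ECS and sham arrays, 1 colour for each probeset, on axes of equal span. Every Igfbp5 probeset is lower on both ECS arrays, whereas every Igfbp2 probeset is highest on sham 2.

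The genes whose pattern over the 4 arrays was most like that of Igfbp5 were Glt8d2, Spryd4, Lpar4, Kif26b and Fat4. The measure was the Euclidean distance between log2 values centred on each gene's mean, which was 0.12 for Glt8d2 and 0.21 for Fat4. With 4 arrays such likeness mainly picks genes with a difference of the same size. Glt8d2 read 6.58 and 6.52 on the ECS arrays, against 7.68 and 7.69 on the sham arrays. Spryd4, from 1 probeset, read 5.72 and 5.64 on the ECS arrays, against 6.81 and 6.80 on the sham arrays. Fat4, an atypical cadherin gene, read 7.91 and 7.77 on the ECS arrays, against 9.14 and 8.94 on the sham arrays.

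The tissue label was set against granule cell markers, 9 of 10 of which had a probeset. Prox1, the transcription factor that defines these neurons, read 9.60 and 9.53 on the ECS arrays, against 9.29 and 9.40 on the sham arrays. The 9 measured granule cell markers had a median difference of -0.52. Among them 5 had both ECS arrays below both sham arrays and 2 had both above, against 30.7% and 18.7% of all genes. Tdo2, a marker of this list, read 4.61 and 4.77 on the ECS arrays, against 7.39 and 7.70 on the sham arrays. Its difference of -2.86 was the lowest of the list, while Npnt, Trpc6 and C1ql2 had 0.06, -0.001 and -0.08. The summed linear level of the 9 markers was 4690.0 and 4799 units on the ECS arrays, against 5590.0 and 5963 units on the sham arrays. Whether the markers and Igfbp5 share a cause was not tested, and in whole tissue fewer cells of a type and less RNA per cell cannot be told apart.

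Igfbp2, which encodes a binding protein made by choroid plexus, meninges and glia, read 7.90 and 7.79 on the ECS arrays, against 7.53 and 8.66 on the sham arrays. Sham 2 lay highest, sham 1 lowest and both ECS arrays in between, so the groups overlapped. The mean was 7.84 ± 0.08 after ECS and 8.09 ± 0.80 after sham (SD, n = 2 each), a difference of -0.25 with a 95% interval of -1.17 to 0.67. Without sham 2 the difference was 0.32, and without sham 1 it was -0.82. Its direction was therefore set by which sham array was used. All 5 Igfbp2 probesets were highest on sham 2.

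Igf2 encodes the ligand IGF-2, which in adult brain is made mainly by choroid plexus and leptomeninges. Its deposited rows used 2 distinct sets of probesets. The row with 3 probesets, which stood for the gene, read 7.94 and 8.15 on the ECS arrays, against 7.82 and 8.46 on the sham arrays. The other 2 rows shared 6 probesets and read 7.33 and 7.39 on the ECS arrays, against 7.26 and 7.94 on the sham arrays. In both sets the ECS arrays lay between the sham arrays. The difference of the first set was -0.09 (95% interval -0.66 to 0.48). It was 0.23 without sham 2 and 0.01 without ECS 1, so its sign depended on the array left out. Probeset 5296715 had the widest gap between sham arrays, with 6.07 and 5.56 on the ECS arrays, against 5.74 and 7.65 on the sham arrays.

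Markers of the choroid plexus and the meninges moved with these genes. All 10 choroid plexus markers were highest on sham 2, and so were 9 of the 10 measured meningeal markers. Sham 2 also had the highest median over all genes, 7.35, against 7.25 on sham 1, 7.26 on ECS 1 and 7.20 on ECS 2. The median of sham 2 minus sham 1 was 1.12 over the choroid plexus markers and 0.67 over the meningeal markers. The summed linear level of the choroid plexus markers was 1952 and 1409 units on the ECS arrays, against 1597 and 4557 units on the sham arrays. That of the meningeal markers was 3611 and 4282 units on the ECS arrays, against 3062 and 4802 units on the sham arrays. Ttr, the transthyretin gene that defines choroid plexus epithelium, read 6.55 and 5.90 on the ECS arrays, against 6.12 and 10.2 on the sham arrays. Igfbp5 did not share this pattern, since sham 1 and sham 2 differed by 0.03. The part of these tissues in the Igf2 and Igfbp2 values was not tested.

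**Figure D3:**
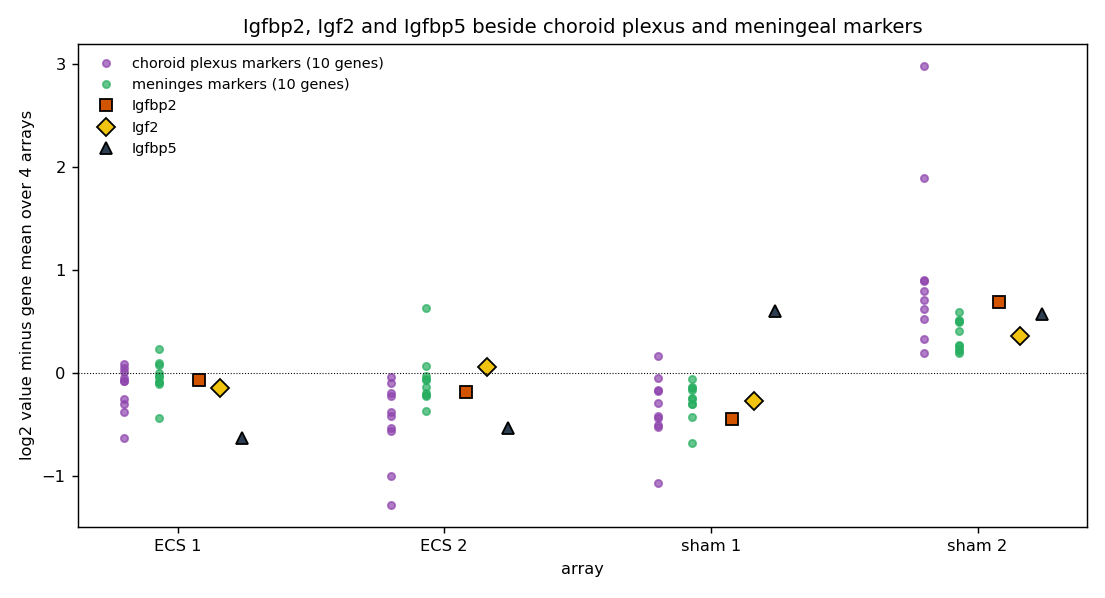
Log2 value minus the gene's mean over the 4 arrays, by array, for 10 choroid plexus markers, 10 meningeal markers, Igfbp2, Igf2 and Igfbp5. The choroid plexus markers all lie highest on sham 2, as do Igfbp2 and Igf2, whereas Igfbp5 is high on both sham arrays.

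The genes nearest to Igfbp2 by pattern were Fmod, Kcnj13, Tbx18, Sulf1 and Spc25. Fmod, the gene of the matrix proteoglycan fibromodulin, was closest with a distance of 0.04 and read 8.14 and 8.06 on the ECS arrays, against 7.76 and 8.94 on the sham arrays. Kcnj13, a potassium channel gene of choroid plexus epithelium, followed at 0.10, but all 5 of its probesets are listed for another gene too. The genes nearest to Igf2 were Ptger3, Cd160, Cd36, Kcnk5 and Ttc32, at distances of 0.06 to 0.09.

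Igf1 encodes the ligand IGF-1, made in the hippocampus by interneurons and microglia among others. The row with 5 probesets read 6.82 and 6.35 on the ECS arrays, against 6.56 and 6.63 on the sham arrays. The other 4 rows shared 14 probesets and read 6.19 and 5.83 on the ECS arrays, against 5.87 and 6.34 on the sham arrays. The groups overlapped in both sets, and the difference of the first was -0.01 (95% interval -0.44 to 0.43), or -0.24 to 0.23 with 1 array omitted at a time. Over all 14 probesets the mean difference was -0.09, and over the 6 outside the dimmest 25% of listed probesets it was -0.23. Across the 14 probesets the differences ran from -0.53 to 0.96. The highest of these, probeset 5298449, read 6.04 and 4.74 on the ECS arrays, against 4.44 and 4.43 on the sham arrays, and lay among the dimmest 25% of listed probesets.

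Igf1r, the signalling receptor gene, read 8.90 and 8.80 on the ECS arrays, against 8.78 and 8.76 on the sham arrays. Both ECS arrays were above both sham arrays, which held for 18.7% of all genes. The difference was 0.08 (95% interval -0.15 to 0.31, adjusted p = 0.7). Of its 32 probesets 5 had both ECS arrays above and 1 had both below, against 17.6% and 25.6% of all listed probesets. Their median difference was 0.03. One dim probeset, 5441851, had a difference of 1.29, with 5.70 and 5.59 on the ECS arrays, against 4.13 and 4.59 on the sham arrays.

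Igf2r, the clearance receptor gene, read 8.84 and 8.84 on the ECS arrays, against 8.93 and 8.93 on the sham arrays. Arrays of a group were almost equal, and both ECS arrays were below both sham arrays, as for 30.7% of all genes. The difference was -0.09 (95% interval -0.31 to 0.12, adjusted p = 0.628), and it was -0.02 with arrays centred on their medians. Of its 50 probesets 20 had both ECS arrays below and 2 had both above, against 25.6% and 17.6% of all listed probesets. Their median difference was -0.11, against -0.04 over all listed probesets. For 2 of the 50, the deposited list also names Airn, the imprinted antisense transcript of the locus. These read 7.67 and 8.22 on the ECS arrays, against 7.71 and 7.34 on the sham arrays (4502750), and 9.22 and 9.23 on the ECS arrays, against 9.05 and 9.19 on the sham arrays (5573879). Both had higher ECS than sham means, as had 15 of the 50 in all, and in the first the groups overlapped.

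**Figure D4:**
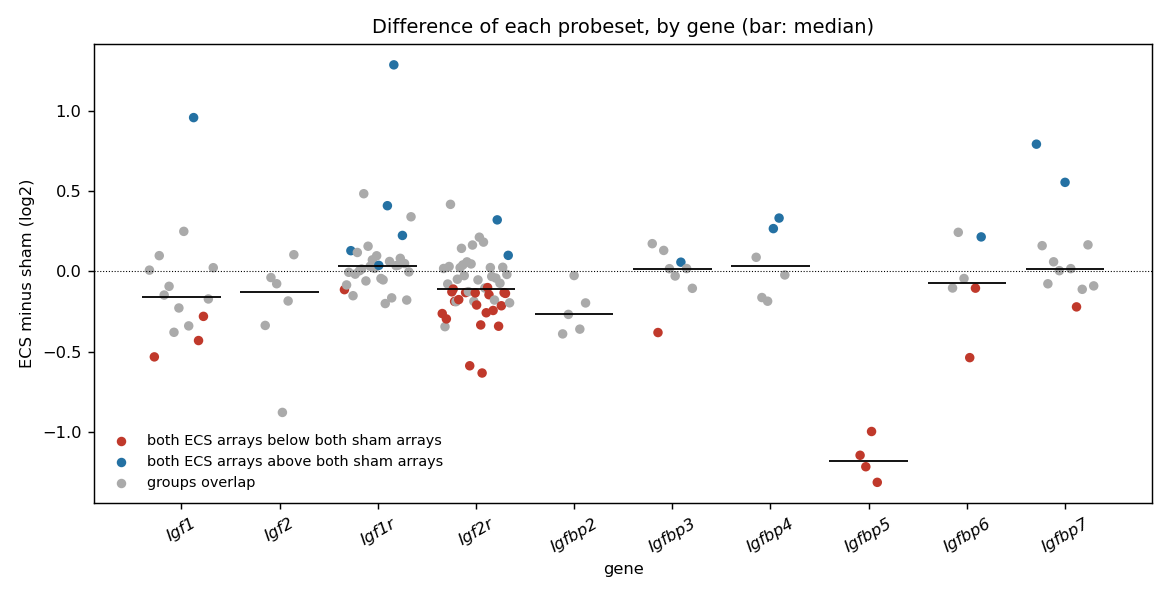
Difference between ECS and sham means (log2) for each of the 142 probesets of the family, by gene, with the median as a bar and colour showing whether the arrays of the groups overlap. The 4 Igfbp5 probesets lie between -1.32 and -0.998, and the other genes' medians lie between -0.27 and 0.03.

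The other binding protein genes differed little between groups. Igfbp3, whose product carries most circulating IGF, read 7.38 and 7.62 on the ECS arrays, against 7.51 and 7.52 on the sham arrays. Igfbp4, whose product inhibits IGF action, read 8.20 and 8.01 on the ECS arrays, against 8.11 and 8.00 on the sham arrays. Igfbp6, whose product prefers IGF-2, read 7.18 and 6.90 on the ECS arrays, against 6.96 and 7.23 on the sham arrays. In all 3 genes the groups overlapped. The differences were -0.02 for Igfbp3 (95% interval -0.30 to 0.27), 0.05 for Igfbp4 (-0.22 to 0.33) and -0.06 for Igfbp6 (-0.43 to 0.32). Omitting 1 array at a time gave -0.13 to 0.10 for Igfbp3, -0.04 to 0.15 for Igfbp4 and -0.19 to 0.08 for Igfbp6, so their sign depended on the array left out.

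Igfbp7, a low-affinity relative expressed by blood vessels, read 7.005 and 7.22 on the ECS arrays, against 7.003 and 6.999 on the sham arrays. Both ECS arrays were above both sham arrays, but ECS 1 by under 0.01, and without ECS 2 the difference was 0.0042 in place of 0.11. Both Igfbp7 rows used the same 11 probesets. The 2 with the highest differences, 0.79 and 0.55, were both among the dimmest 25% of listed probesets. Over the 9 probesets outside that 25% the mean difference was -0.01. The 7 measured endothelial markers had a median difference of -0.03 and the 6 mural markers of -0.01. The endothelial markers were mixed, from -0.55 for Slco1a4 to 0.23 for Slc2a1. Among them 3 had both ECS arrays below both sham arrays and 1 had both above, against 30.7% and 18.7% of all genes. Among the mural markers these counts were 0 and 1.

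Over the family the median difference was -0.04, and over all genes it was also -0.04. Of the 10 genes, 2 had both ECS arrays above and 2 had both below, against 18.7% and 30.7% of all genes. Of the 142 probesets 32 were lower and 14 higher without overlap, against 25.6% and 17.6% of all listed probesets, and without the 14 probesets among the dimmest 25% of all listed probesets 30 and 10. With arrays centred on their medians, the median difference over all genes was 0.04. This centring turned the small differences of Igf1, Igfbp3 and Igfbp6 to 0.07, 0.06 and 0.02, as did quantile normalization with 0.06, 0.05 and 0.01, while Igfbp5 kept -1.10 and -1.16.

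The wider insulin and IGF pathway was read from a list of 54 genes, of which 53 were measured; it was drawn up with the Stc1 result known. Limma called 1 higher (Rheb) and 1 lower (Stc1), against 0.5% and 0.194% of all genes, and 51 did not pass. At an unadjusted limma p under 0.05, 9 of the 53 passed, where 16.9% of all genes did. Both ECS arrays were above both sham arrays for 5 of the 53 and below for 20, against 18.7% and 30.7% of all genes, and the median difference was -0.05, against -0.04 over all genes.

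Among the proteases that cut binding proteins and their inhibitors, Stc1 fell. Its product, stanniocalcin-1, is known from human proteins to inhibit the pappalysins. Stc1 read 6.75 and 6.46 on the ECS arrays, against 8.11 and 8.14 on the sham arrays, a difference of -1.53 ± 0.12 (SE, limma adjusted p = 0.0211), or 2.88-fold lower. Pappa, which encodes the pappalysin that in humans cuts IGFBP-4 and IGFBP-5, read 6.24 and 6.15 on the ECS arrays, against 5.69 and 5.73 on the sham arrays. The Pappa groups did not overlap, but its difference of 0.49 ± 0.09 did not pass (limma adjusted p = 0.104). Stc2, which encodes a second pappalysin inhibitor, had -0.30 (adjusted p = 0.279), Pappa2 0.13, Htra1, a serine protease gene, 0.08 and Adam12, a metalloprotease gene, -0.05.

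In the branch from PI3 kinase to mTOR and FoxO, Rheb rose. It encodes the small GTPase that activates mTOR complex 1. Rheb read 10.6 and 10.4 on the ECS arrays, against 9.61 and 9.67 on the sham arrays, a difference of 0.87 ± 0.10 (SE, limma adjusted p = 0.0432), or 1.83-fold. The other 22 genes of the branch did not pass. Of its 23 genes, 11 had both ECS arrays below both sham arrays and 2 had both above, against 30.7% and 18.7% of all genes. Foxo1, a transcription factor gene that this pathway restrains, had -0.62 (adjusted p = 0.09), and the PI3 kinase subunit genes Pik3r1 and Pik3cb had -0.29 each. The highest differences after Rheb were 0.24 for Foxo6, from 1 probeset, and 0.21 for Pik3r3. When any 1 of the 4 arrays was left out neither call held, as for nearly all calls over all genes. The differences then ran from -1.67 to -1.38 for Stc1 and from 0.80 to 0.94 for Rheb.

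None of 11 adaptors and negative regulators passed. Of these, 5 had both ECS arrays below both sham arrays and 1 had both above, against 30.7% and 18.7% of all genes. Grb14, an adaptor gene that dampens insulin receptor signalling, had -0.75 (adjusted p = 0.09), Irs1, the insulin receptor substrate gene, -0.45 (adjusted p = 0.112) and Socs3, a feedback inhibitor gene, -0.29. The highest were Ptpn1, the gene of a non-receptor phosphatase that acts on the insulin receptor, at 0.20 and Irs4 at 0.07. Insr, the insulin receptor gene, read 9.15 and 9.09 on the ECS arrays, against 9.13 and 9.21 on the sham arrays, and the groups overlapped. None of the 7 ligands and receptors outside the family passed, with differences from -0.18 for Igfbp1 to 0.18 for Ins1. The 3 Igf2 mRNA-binding protein genes lay between -0.12 and 0.13, and Igf2os, Dlk1 and Plagl1 between -0.05 and 0.13.

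**Figure D5:**
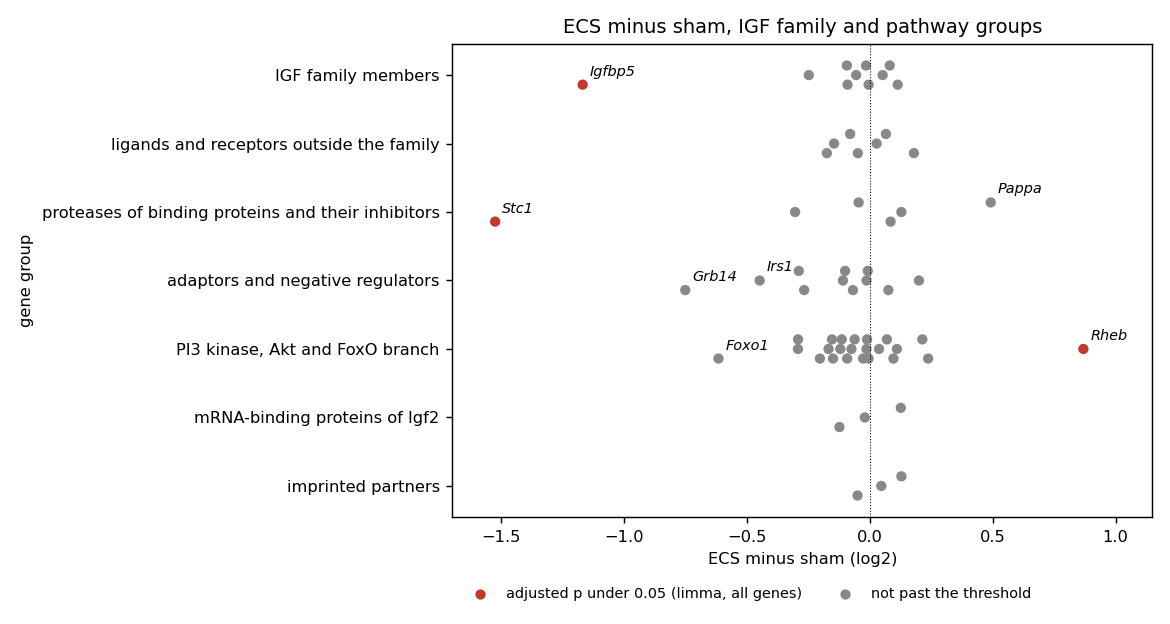
Difference between ECS and sham means (log2) of the 10 family members and 53 pathway genes, 1 point a gene, by group, with genes past the limma threshold in red. Igfbp5, Stc1 and Rheb are the genes past it, at -1.17, -1.53 and 0.87.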

How the data were processed

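Total RNA from microdissected dentate gyrus was ribosome-depleted, amplified with random primers and hybridised to exon arrays, per the labels' protocols. The deposited values are log2 expression; RMA and the oligo package are named, per the submitters' processing notes, and neither their versions nor a genome build is given in the sources used here. One deposited table has a log2 value for each probeset and labelled sample, another a log2 value for each RefSeq transcript, and a separate file lists the probesets of each transcript. Means of the labelled probeset values equalled the transcript table within 5e-09 in 1 labelled array for each of its columns, so replicate numbers are used here. The transcript table names its groups by 0 h and 4 h, taken as sham and ECS. All 3621 rows with no probeset were listed at 0 and left out.

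RefSeq accessions were matched to RefSeq GRCm38.p6 (24928 of 25635) for current symbols, and the row with the highest mean stood for a gene. All genes were fitted with limma 3.58.1 in R 4.3.3 (lmFit, eBayes, no block or filter, threshold 0.05 after Benjamini-Hochberg adjustment), with 2 residual and 3.23 prior degrees of freedom; the number of arrays limits the precision. The fit was tested on simulated data. Promoter windows came from RefSeq GRCm38.p6; all 10 genes matched. All family members were named, pathway genes when past the threshold or among up to 3 of the largest differences of their group, and the 5 nearest genes of Igfbp5, Igf2 and Igfbp2. Members, gene lists and alternatives were chosen with earlier results of these data known. Marker lists of 11 cell types or tissues were read. Those not in the text had median differences of -0.05 (microglia), 0.01 (astrocytes), 0.04 (interneurons) and 0.04 (pyramidal cells). Oligodendrocyte markers had 0.25, with all 7 highest on ECS 1, and blood markers 0.79. The 5 measured blood genes had both ECS arrays above both sham arrays, as had 18.7% of all genes. Hba-a1 and Hba-a2 had identical values, as had Hbb-b2 and Hbb-bt, so these 5 are not separate measurements.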

Additional observations from a re-analysis of the deposited data

How the results depend on the processing

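Over all genes limma called 90 higher and 35 lower. When each array was omitted once, 0 to 5 genes were called higher and 0 to 2 lower, while 2024 to 2581 had an unadjusted p under 0.05. The single array left in a group was then given the spread of the other group. Without the dimmest 25% of genes 242 were higher and 216 lower, with trend and robust eBayes 365 and 352, and with median centring 18 were lower. With the replicate number as a block the counts were 26 higher and 6 lower, and a crossed pairing, chosen after seeing the data, gave 106 and 48. The labels do not say that the numbers pair mice, and deviations of same-numbered arrays correlated at -0.20 across genes. Quantile normalization, the mean of a gene's rows, values rebuilt from probesets and removal of shared probesets kept both counts within 1.5 times.

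The Igfbp5 difference lay between -1.22 and -1.12 with 1 array left out, and its call was lost each time (0 members called lower, 1 to 3 at an unadjusted p under 0.05). With the replicate block it was -1.17 with an adjusted p of 0.0619, so 0 members were called and 1 had an unadjusted p under 0.05. It was called under the other 8 settings, with an adjusted p of 0.000434 to 0.0399. Of the pathway genes, 0 were called in either direction with 1 array left out (7 to 10 at an unadjusted p under 0.05). The replicate block called 0 higher, with 6 at an unadjusted p under 0.05, and Rheb had an adjusted p of 0.124. Without the dimmest 25% 2 were higher and 3 lower, and with trend and robust eBayes 4 were lower. The causes of these changes between settings were not tested. Signal over background was not measured, and dim probesets are least certain.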
